A study of Arabidopsis thaliana with 9 samples.

Results

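Of the 27655 genes in the deposited expression table of whole Arabidopsis thaliana seedlings, 8171 had all 6 libraries of the H3.3 G34R and G34W lines on the same side of all 3 wild-type libraries, 6008 above and 2163 below. These genes form the response that both lines share. A filter on low values, a mean of at least 1 TPM (transcript share scaled to a fixed library total) over the 9 libraries, left 18544 genes to test, and 7752 of the separated genes passed it, 5742 above wild type (31.0% of the genes tested) and 2010 below (10.8%). The other 419, 266 above and 153 below, were too low to test. A separated gene is called common below when the mean of the 2 lines, weighted equally, also differed from wild type at an adjusted p under 0.05 in limma's moderated test on log2(TPM + 1). There were 7582 common genes, 5637 higher in the lines (30.4% of the genes tested) and 1945 lower (10.5%). The test and the separation read the same values, so neither is independent support for the other.

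Messenger RNA was profiled in 3 groups of 3 libraries from seedlings 10 days old, grown at 22 °C in days of 16 h light and 8 h dark. The groups were wild type of the Col accession, a line that the labels give as h3.3ko;HTR5 G34R, and one given as h3.3ko;HTR5 G34W. They are called G34R and G34W here. By the usual notation, the glycine at residue 34 of the HTR5 protein is exchanged for arginine or for tryptophan, and both lines carry h3.3ko, whose alleles the labels do not give. A line with h3.3ko and unchanged HTR5 was not analysed here, so effects of the exchanges, of h3.3ko and of what else the lines share cannot be told apart. The labels give no promoter, number of independent clones or pooling. Nor do they state that replicates came from separate plantings. The p-values therefore reflect the scatter of these libraries alone, and that scatter may be technical.

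The variant H3.3 of histone H3 is placed into chromatin outside DNA replication, mostly along transcribed genes, whereas H3.1 is placed during replication. Residue 34 lies beside lysine 36, whose methylation marks transcribed gene bodies and, in Arabidopsis, is needed for full expression of the floral repressor FLC. Exchanges at this glycine are known from human tumours, where they impair methylation of lysine 36 on the same histone tail.

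Each library held 12889624 to 14730745 reads, as recovered from the TPM. In the lines the most abundant genes took a smaller share of the total, since the 100 genes highest in wild type held 38.4% to 38.7% of the TPM there, 34.3% to 36.1% in G34R and 33.1% to 33.3% in G34W. TPM sums to a fixed total, and the median of all genes tested lay at a log2 difference of 0.15 between the lines' mean and wild type. Rescaling each library by the median of its ratios to a common reference brought that median to -0.00. The common genes then numbered 3389 higher (18.3%) and 3734 lower (20.1%), and quantile normalization gave 3347 higher (18.0%) and 3557 lower (19.2%). The share of common genes that were higher was thus 74.4% as deposited, 47.6% after median-ratio scaling and 48.5% after quantile normalization. A total of 3006 genes were common and higher under all 3 scalings (16.2%), and 1913 were common and lower under all 3 (10.3%). The balance of rises and falls therefore depended on the scaling.

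**Figure D1:**
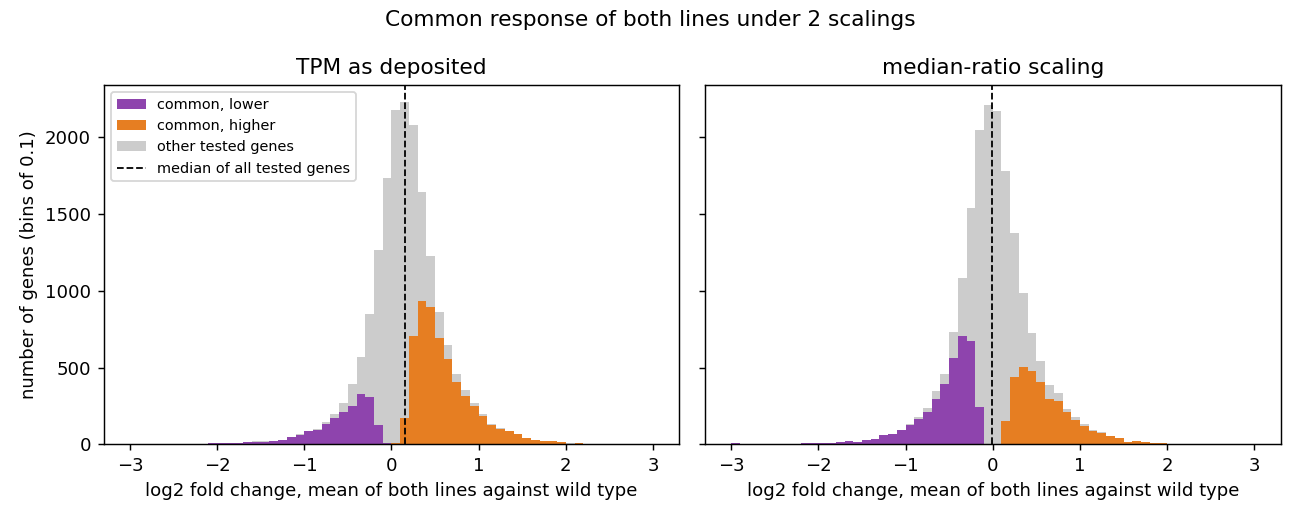
Number of genes (vertical axis, bins of 0.1) by log2 fold change of the mean of both lines against wild type (horizontal axis, values beyond 3 drawn at 3), as deposited on the left and after median-ratio scaling on the right. Orange and purple mark common genes that were higher or lower, grey the other genes tested, and the dashed line is the median, at 0.15 on the left and -0.00 on the right.

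Most common changes were small. The common genes that were higher had a median log2 difference of 0.51, with the middle 50% of sizes between 0.36 and 0.77, and those that were lower had a median of -0.48. A change of at least 1 log2 unit, a doubling or halving of TPM + 1, was seen in 712 common genes that rose (3.84% of the genes tested) and in 239 that fell (1.29%). By the wider call, the adjusted p alone, 7930 genes were higher (42.8%) and 2789 lower (15.0%). Counts of list members below are to be read beside the shares of all genes tested that were common. Those were 30.4% higher and 10.5% lower as deposited, and 18.3% and 20.1% after median-ratio scaling.

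Of the 3 genes that encode H3.3, HTR4 and HTR8 fell, and HTR5 had no direction that held under every scaling. Coding sequence of each around residue 34 is shown from RefSeq's TAIR10.1 assembly beside the H3.1 gene HTR2, as the lines are named for an exchange at this codon. Codons 28 to 40 are given, counted from the residue after the first methionine, all on the minus strand, and capitals mark codon 34, which is GGA for glycine in all 4 reference genes.
HTR5, gene at chr4:18557149-18558945: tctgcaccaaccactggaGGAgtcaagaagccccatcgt
HTR4, gene at chr4:18555532-18557106: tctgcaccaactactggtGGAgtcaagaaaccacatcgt
HTR8, gene at chr5:3472405-3473570: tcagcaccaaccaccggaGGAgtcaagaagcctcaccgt
HTR2, gene at chr1:2971571-2972334: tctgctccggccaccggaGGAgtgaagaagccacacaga

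Over the whole coding sequence HTR4 shared 88.8% of its bases with HTR5, HTR8 79.8% and HTR2 78.1%. HTR8 was at 214, 207 and 210 TPM in wild type against 5.07, 3.92 and 5.86 in G34R and 6.69, 4.65 and 5.24 in G34W. It fell most of all named genes, by 5.10 on the log2 scale (SE 0.10, adjusted p = 7.45e-16), and the lines overlapped each other while lying far under wild type. HTR4 fell by 1.505 (SE 0.03, adjusted p = 4.2e-15) from 408 to 438 TPM in wild type, reaching 132 to 137 in G34R and 152 to 165 in G34W. HTR5, the gene that the lines' names refer to, was at 331 to 335 TPM in wild type against 353 to 360 in G34R and 368 to 390 in G34W. Its difference was 0.14 (SE 0.03, adjusted p = 0.000207) as deposited and -0.03 after median-ratio scaling, so no direction is given for it.

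Genes of the other histones rose together. All 5 H3.1 genes rose, with a median log2 difference of 0.69 as deposited and 0.52 after median-ratio scaling, beside 0.15 and -0.00 for all genes. HTR2 was at 109, 106 and 110 TPM in wild type against 194, 184 and 176 in G34R and 212, 193 and 199 in G34W, a rise of 0.82 (SE 0.04, adjusted p = 2.97e-11). The H3.1 genes are close copies, and the reads of single copies may be exchanged among them.

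All 3 linker histone genes rose as well. HIS1-3, a linker histone known to be induced by drought, was at 48.8, 51.5 and 58.6 TPM in wild type against 355, 347 and 358 in G34R and 322, 342 and 318 in G34W. That is a rise of 2.67 (SE 0.05, adjusted p = 2.21e-16), and the lines did not differ from each other past the threshold. The general linker histones H1.1 and H1.2 rose by 0.94 (SE 0.04, adjusted p = 1.07e-11) and 0.96 (SE 0.03, adjusted p = 6.43e-14), each more in G34W than in G34R. Of 10 measured genes for H3 chaperones, which carry H3 to DNA, MSI1 alone was common, at 0.38. Among 8 measured genes of H3K36 methylation the reader MRG1 and the demethylase gene JMJ30 rose, by 0.38 and 0.48. JMJ30 rose by 0.84 in G34R and was at 0.13 in G34W (adjusted p = 0.489), and it was no longer common after median-ratio scaling. The methyltransferase gene SDG8 was not common as deposited, at -0.24, and was common and lower after median-ratio scaling, at -0.41. None of the 8 measured Polycomb and H3K27 demethylation genes was common as deposited, and 2 were lower after median-ratio scaling.

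Genes of root hairs and of the root endodermis rose in both lines. All 10 root hair genes on the list rose, with a median of 1.22, as did 7 of 10 measured genes of the Casparian strip and endodermis, with a median of 0.91, and 11 of 12 suberin genes, with a median of 1.097. After median-ratio scaling the same 3 lists had 10, 7 and 11 members higher and 0, 1 and 1 lower. PRP3, a cell wall protein of root hairs, was at 6.44, 5.999 and 7.74 TPM in wild type against 26.96, 29.1 and 23.1 in G34R and 17.6, 17.9 and 19.9 in G34W. It rose by 1.58 (SE 0.09, adjusted p = 2.97e-10), with G34R above G34W.

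CASP1, which builds the scaffold of the Casparian strip, was at 19.9, 20.5 and 18.6 TPM in wild type against 56.5, 53.9 and 51.2 in G34R and 43.9, 43.5 and 47.2 in G34W, a rise of 1.28 (SE 0.06, adjusted p = 8.4e-12). CYP86A1, a fatty acid hydroxylase of suberin synthesis, rose from 14.4 to 19.9 TPM in wild type, reaching 43.2 to 46.1 in G34R and 33.2 to 41.2 in G34W, by 1.26 (SE 0.09, adjusted p = 2.6e-09). PHT1;1, a phosphate importer of roots, rose by 1.61 (SE 0.06, adjusted p = 1.35e-12) while on the rest of the phosphate list PHO1 rose by 0.21 and 3 members fell. SHR and SCR, the regulators of endodermal identity, were not common, at 0.13 and -0.07.

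Summed over its 10 genes, the root hair list took 17.0 to 18.4 TPM in wild type against 64.2 to 76.4 in G34R and 49.1 to 56.4 in G34W. The 8 endodermis markers took 50.0 to 53.9, 118 to 143 and 103 to 112 TPM. The 28 light-harvesting and photosystem genes took 207000 to 209600 TPM in wild type against 180900 to 194100 in G34R and 172100 to 173300 in G34W. The 8 genes of the stomatal lineage list took 85.04 to 91.5 TPM in wild type against 87.5 to 96.8 in G34R and 76.6 to 83.0 in G34W. The sums of root markers were thus higher in both lines and that of the photosystem genes lower, while that of the stomatal lineage was lower in G34W and overlapped wild type in G34R. The stomatal sum hides 2 common genes, both lower, beside 10.5% of all genes tested, and the other 6 were not common. FAMA fell by 0.79 (SE 0.11, adjusted p = 1.18e-05), by 0.82 in G34R and 0.76 in G34W. SPCH fell by 0.51 (SE 0.13, adjusted p = 0.00244), by 0.78 in G34R and 0.25 in G34W. No marker of these 4 lists was at 0 in all libraries. In whole seedlings, more or fewer cells of a type and more or less RNA per cell cannot be told apart, and the part of tissue makeup in the results was not tested.

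Some genes of iron storage and uptake stood among the strongest rises. Of 8 measured storage and sequestration genes 6 rose, with a median of 0.78, and 4 of them still rose after median-ratio scaling. FER1, a ferritin that stores iron in plastids, was at 84.9, 88.1 and 91.0 TPM in wild type against 520, 518 and 528 in G34R and 374, 374 and 374 in G34W, a rise of 2.32 (SE 0.03, adjusted p = 3.65e-18). The vacuolar iron transporter-like genes VTL1 and VTL5 rose by 1.87 (SE 0.10, adjusted p = 1.83e-10) and 1.48 (SE 0.04, adjusted p = 5.29e-14). The gap between the lines and wild type was 2.03 log2 units in FER1, 1.51 in VTL1 and 1.24 in VTL5, where the selection requires any gap.

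Of 19 measured genes of iron uptake and the deficiency response 8 rose and 2 fell, beside 30.4% and 10.5% of all genes tested. After median-ratio scaling 8 rose and 5 fell, beside 18.3% and 20.1%. IRT1, an iron transporter on the list, rose by 1.84 (SE 0.05, adjusted p = 1.31e-14), by 2.375 in G34R and 1.305 in G34W. IRT3, a zinc and iron transporter that was not on this list, was at 5.13, 3.96 and 5.34 TPM in wild type against 24.8, 24.7 and 26.1 in G34R and 23.5, 26.5 and 25.1 in G34W, with a rise of 2.17 (SE 0.08, adjusted p = 2.32e-12). The lines overlapped each other. NAS2, which makes the metal chelator nicotianamine, rose by 2.73 (SE 0.12, adjusted p = 1e-11), and CYP82C4, which acts on coumarins in iron acquisition, by 2.80 (SE 0.09, adjusted p = 1.34e-13). BTS, a repressor of the deficiency response, and OPT3, a transporter of phloem iron, fell by 0.69 and 0.70. The list's median was 1.24 in G34R and 0.08 in G34W, and 14 of its 19 members differed between the lines, so its higher values lay mainly in G34R. Uptake genes act largely in the root epidermis, and the part that the higher root hair markers have in their rise was not tested.

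The aliphatic glucosinolate list was split, with a median of -0.12. Of 12 measured genes 4 were higher, near the 30.4% of all genes tested, and 4 lower, beside 10.5%. After median-ratio scaling 3 were higher and 6 lower, beside 18.3% and 20.1%. MAM3, which elongates the side chain of aliphatic glucosinolates, was at 2.06, 1.76 and 2.03 TPM in wild type against 16.1, 19.5 and 19.5 in G34R and 19.7, 18.3 and 17.9 in G34W, a rise of 2.72 (SE 0.09, adjusted p = 3.87e-13). The lines overlapped. MYB28, the main activator of that pathway, went the other way, from 54.1, 47.7 and 53.9 TPM in wild type to 22.7, 24.5 and 23.7 in G34R and 22.6, 22.5 and 23.2 in G34W, a fall of 1.13 (SE 0.06, adjusted p = 7.17e-11). In the indole branch, where 5 of 8 measured genes rose and 1 fell, the regulators also parted, as MYB34 rose by 1.12 (SE 0.05, adjusted p = 2.8e-11) and MYB51 fell by 1.15 (SE 0.11, adjusted p = 1.61e-07).

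MLP328, of the major latex protein family, rose from 192 to 202 TPM in wild type, reaching 989 to 1080 in G34R and 767 to 786 in G34W, by 2.17 (SE 0.03, adjusted p = 4.63e-18). ATC, a relative of FT that delays flowering, rose from 1.44 to 2.12 TPM to 12.1 to 13.4 and 8.82 to 10.7, by 2.13 (SE 0.11, adjusted p = 5.81e-11). The sulfotransferase gene ST4B rose by 1.999 (SE 0.09, adjusted p = 1.61e-11). CRA1, a seed storage globulin, was the named gene with the largest rise, 2.94 (SE 0.13, adjusted p = 1.02e-11), from 0.535, 0.157 and 0.218 TPM in wild type to 17.8, 20.24 and 21.4 in G34R and 4.14, 3.95 and 3.20 in G34W. The 11 seed markers together took 3.79 to 4.71 TPM in wild type against 27.3 to 31.1 in G34R and 11.1 to 13.5 in G34W. CRA1 itself made up most of the sum in G34R. Of the 6 measured genes of the wider seed list 2 rose and 1 fell, with a median of -0.12, 0.61 in G34R and -0.98 in G34W. OLEO4, an oil-body protein, rose by 1.55 and EM6, a late embryogenesis protein, fell by 1.08, while CRU2, SESA1 and SESA4 were at 0 in every library.

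**Figure D2:**
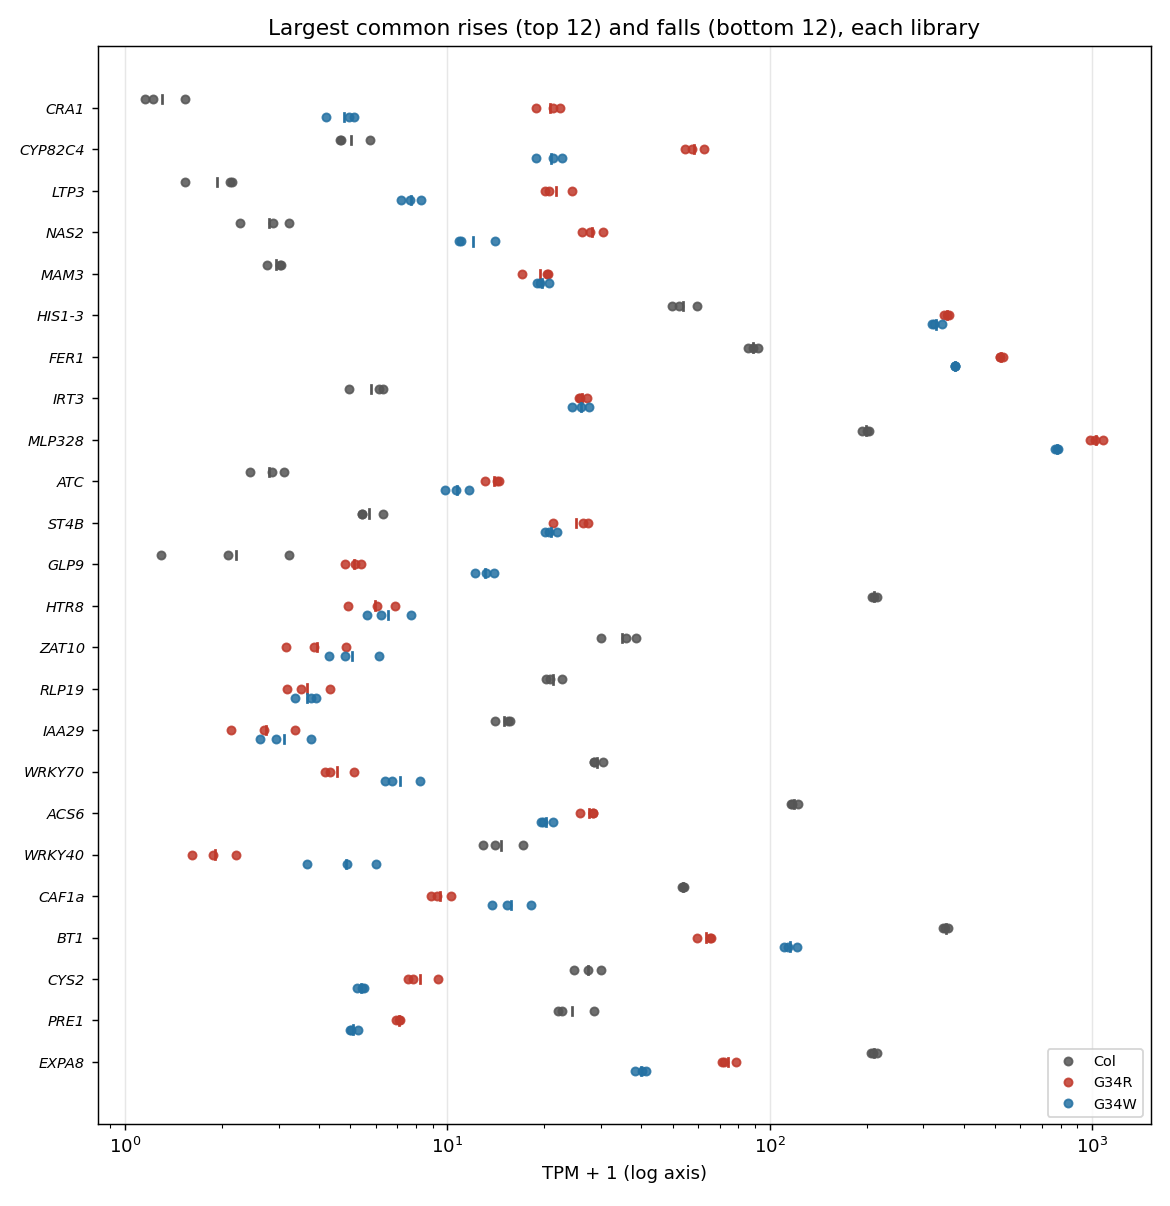
TPM + 1 of each library (log axis) for the 12 named genes whose lines' mean rose most and the 12 whose mean fell most, with wild type in grey, G34R in red and G34W in blue, points for libraries and short bars for group means. In every gene the 6 line libraries lie on one side of the 3 wild-type libraries, as the selection requires, and HTR8 has the largest gap.

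Genes that answer within minutes to touch, wounding and other stress fell together. Of 22 measured members of this list 18 fell and none rose, under the deposited scaling and after median-ratio scaling alike, with a median of -0.85 as deposited. ZAT10, a zinc-finger repressor, was at 37.6, 34.8 and 28.9 TPM in wild type against 2.16, 3.85 and 2.85 in G34R and 3.80, 5.14 and 3.29 in G34W, a fall of 2.97 (SE 0.14, adjusted p = 2.57e-11). ACS6, an enzyme of ethylene synthesis, was at 117, 121 and 116 TPM in wild type against 27.4, 27.3 and 24.9 in G34R and 18.5, 20.3 and 18.8 in G34W, a fall of 2.33 (SE 0.05, adjusted p = 3.2e-15). The gap between the lines and wild type, which the selection requires, was 2.285 log2 units in ZAT10 and 2.038 in ACS6.

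CAF1a, a deadenylase that shortens mRNA tails, fell by 2.15 (SE 0.08, adjusted p = 1.93e-12) and the ethylene response factor ERF104 by 1.56 (SE 0.07, adjusted p = 2.41e-11). The touch genes TCH2, TCH3 and TCH4 fell by 0.35, 0.60 and 0.24. ZAT6, WRKY18, WRKY53 and ERF6 were not common, at 0.19, 0.30, 0.07 and -0.33. Of 8 measured salicylic acid and defence genes 4 fell and 2 rose, beside 10.5% and 30.4% of all genes tested. WRKY70, which promotes salicylic acid responses, was at 27.5, 29.4 and 27.6 TPM in wild type against 4.12, 3.16 and 3.34 in G34R and 7.21, 5.42 and 5.75 in G34W. It fell by 2.37 (SE 0.10, adjusted p = 8.96e-12), less in G34W than in G34R. RLP19, a receptor-like protein, fell by 2.54 (SE 0.12, adjusted p = 1.78e-11), from 19.3 to 21.8 TPM to 2.18 to 3.33 in G34R and 2.37 to 2.90 in G34W.

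Genes of the auxin response were more often lower than higher. Of 15 auxin response genes 8 fell and 2 rose, with a median of -0.22. IAA29, an auxin response repressor induced by shade, was at 14.4, 13.0 and 14.7 TPM in wild type against 1.70, 1.13 and 2.36 in G34R and 2.77, 1.62 and 1.95 in G34W, a fall of 2.38 (SE 0.15, adjusted p = 1.05e-09). PRE1, a helix-loop-helix protein that promotes elongation, fell by 2.02 (SE 0.10, adjusted p = 3.45e-11). EXPA8, an expansin that loosens cell walls, was at 208, 205 and 215 TPM in wild type against 77.8, 70.4 and 71.5 in G34R and 39.1, 40.4 and 37.3 in G34W, a fall of 1.95 (SE 0.04, adjusted p = 2.67e-15). In EXPA8 the 3 groups were ordered without overlap, with G34W lowest.

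Among 9 measured PIF and shade genes 5 fell and 4 rose, beside 10.5% and 30.4% of all genes tested. The factor PIF4, which drives elongation, fell by 0.55 (SE 0.04, adjusted p = 3.48e-09), and HFR1, which restrains the shade response, by 1.09 (SE 0.08, adjusted p = 8.5e-09). PAR1, another inhibitor of the shade response, rose by 1.08 (SE 0.07, adjusted p = 9.76e-10), and PIF3, another factor that drives elongation, by 0.72. Activators and inhibitors were thus found on both sides.

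Genes of sugar and energy state also fell. Of 10 sugar starvation and senescence genes 6 fell and 2 rose, with a median of -0.55. BT1, a BTB and TAZ domain protein, was at 358, 345 and 351 TPM in wild type against 58.6, 64.6 and 65.0 in G34R and 121, 110 and 113 in G34W, a fall of 2.04 (SE 0.04, adjusted p = 8.38e-16), and its relative BT2 fell by 1.11 (SE 0.04, adjusted p = 4.42e-13). Every one of the 10 list members differed between the lines past the threshold. The cystatin gene CYS2, which encodes a protease inhibitor, fell by 2.03 (SE 0.09, adjusted p = 2.25e-11).

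Photosynthesis genes mostly fell by little, and how many did so rested on the scaling. Of 28 light-harvesting and photosystem genes 15 fell and 1 rose as deposited, 23 fell and none rose after median-ratio scaling, and 8 fell under all 3 scalings. LHCB1.4, a light-harvesting protein, was at 5315, 5444 and 5363 TPM in wild type against 2809, 2738 and 2530 in G34R and 3076, 3143 and 3245 in G34W, a fall of 0.88 (SE 0.03, adjusted p = 1.12e-13). LHCB2.3 fell by 0.76 (SE 0.02, adjusted p = 5.65e-14). Both belong to families of close copies. Of 12 Rubisco and Calvin cycle genes 7 fell, 11 after median-ratio scaling and 2 under all 3 scalings.

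**Figure D3:**
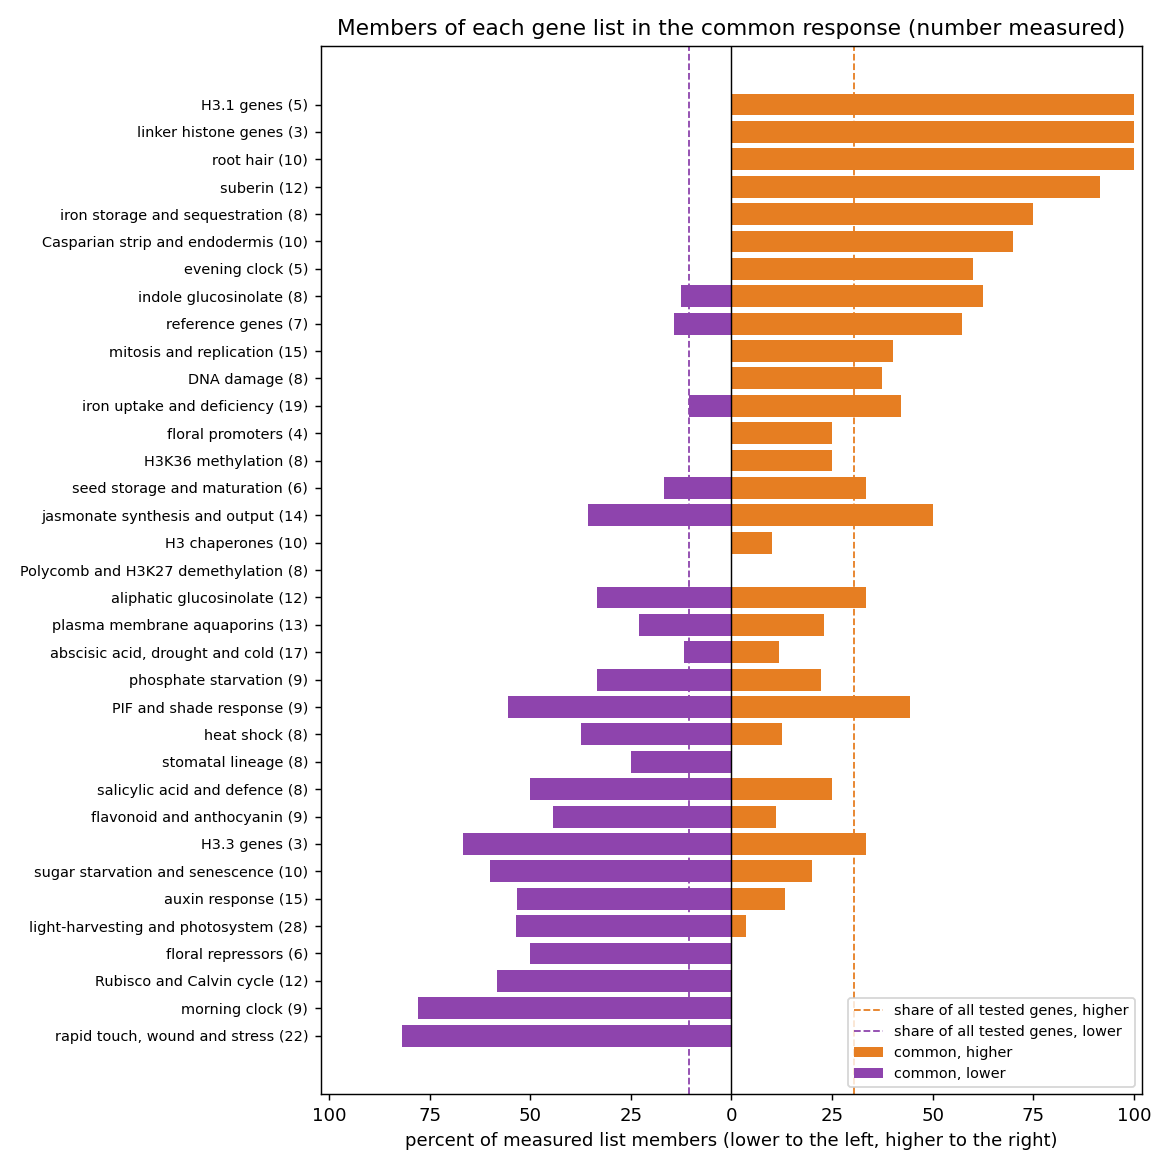
Percent of each list's measured members (numbers in brackets) that were common and higher (orange, to the right) or common and lower (purple, to the left), as deposited, with dashed lines at the shares among all genes tested, 30.4% and 10.5%. Root hair, linker histone and H3.1 lists lie wholly on the higher side, and the rapid stress and morning clock lists mostly on the lower side.

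The clock genes split by time of day. Of 9 morning genes 7 fell, all 9 after median-ratio scaling, and of 5 measured evening genes 3 rose under either scaling. CCA1 and LHY, the morning repressors, fell by 0.51 (SE 0.03, adjusted p = 2.68e-09) and 0.47 (SE 0.04, adjusted p = 4.31e-08). CCA1 was at 222, 223 and 224 TPM in wild type against 140, 147 and 156 in G34R and 167, 164 and 167 in G34W. TOC1, an evening repressor of CCA1 and LHY, was at 5.33, 6.44 and 5.61 TPM in wild type against 8.52, 10.2 and 11.7 in G34R and 10.6, 10.8 and 9.88 in G34W, a rise of 0.73 (SE 0.10, adjusted p = 1.36e-05). LUX and ELF4, parts of the evening complex, rose by 0.75 (SE 0.12, adjusted p = 7.11e-05) and 0.99 (SE 0.20, adjusted p = 0.00042), the latter from 0.486, 2.25 and 1.39 TPM in wild type, reaching 2.77 to 4.02 TPM in G34R and 2.96 to 3.94 in G34W. GI and ELF3 were not common, at 0.19 and 0.12, and the hour of harvest is not given in the labels.

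Promoter stretches of 5 of these genes are printed since the lists are known for particular elements. They come from the 250 bases before the annotated gene start in TAIR10.1, each written 5′ to 3′ on the gene's strand. Capitals mark the evening element AAATATCT in the first 3, and the G-box CACGTG with the ABRE ACGTGNC, which can overlap it, in the last 2, on either strand.
TOC1, chr5:24674787-24674844, plus strand: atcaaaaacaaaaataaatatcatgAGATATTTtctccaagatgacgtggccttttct
LUX, chr3:17182947-17183022, plus strand: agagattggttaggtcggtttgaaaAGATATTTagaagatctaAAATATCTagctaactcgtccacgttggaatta
ELF4, chr2:16735161-16735203, minus strand: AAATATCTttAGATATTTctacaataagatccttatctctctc
CCA1, chr2:19245371-19245430, plus strand: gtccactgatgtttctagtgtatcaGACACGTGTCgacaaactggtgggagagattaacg
LHY, chr1:37919-37976, minus strand: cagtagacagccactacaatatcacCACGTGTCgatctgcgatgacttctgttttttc

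All 3 evening genes that rose held the evening element, which 4.87% of the 18465 promoters of nuclear genes tested held. For GI and ELF3, the evening genes that were not common, it was not counted separately, so no link with the rise can be read from this. Of the 7 morning genes that fell, 5 held the ABRE, against 9.74% of all promoters, and 3 the G-box, against 7.56%. Neither was particular to the morning genes, as 2 of the 3 evening genes that rose held the ABRE and 1 the G-box. PRR7, a morning gene that was not common, held both as well. A match describes the letters of a window and shows no binding.

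Over all common genes the shares lay nearer to those of all promoters. The evening element stood in 4.94% of the promoters of common higher genes and 5.10% of those of common lower genes, site II, TGGGCC, known from promoters of ribosomal protein and other housekeeping genes, in 16.8% and 10.8%, the G-box in 6.71% and 10.8%, and the ABRE in 9.001% and 12.6%. Among the largest changes the G-box stood in 13.4% of the promoters of the 238 nuclear genes that fell by at least 1 log2 unit and in 6.46% of those of the 712 that rose as much, and the ABRE in 15.5% and 6.88%. The evening element stood in 5.88% and 4.49%. Site II stood in 8.40% and 5.76%, against 16.8% of all promoters. The RSRE, CGCGTT, known from rapid stress genes, was in 2 of 18 promoters of the rapid stress genes that fell, against 2.70% of all. This count was not particular to the RSRE. In the same 18 promoters the W-box, TTGACC, was in 5, against 12.1% of all. The evening element and the ABRE were in 2 each, against 4.87% and 9.74%. The promoter of the calmodulin-like touch gene TCH2 is shown because it holds the RSRE on both strands in 2 palindromes, in capitals.
TCH2, chr5:14999652-14999728, minus strand: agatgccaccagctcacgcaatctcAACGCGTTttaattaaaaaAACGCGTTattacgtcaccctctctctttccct

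Of 6 measured floral repressors 3 fell, with a median of -0.28, and of 4 measured floral promoters 1 rose. Over all genes tested 10.5% were common and lower and 30.4% common and higher. FLC, the floral repressor, was under the filter on low values, at 2.49, 2.83 and 2.04 TPM in wild type against 0.209, 0.316 and 0.294 in G34R and 0, 0 and 0 in G34W, that is 81 to 104, 9 to 13 and 0 reads. On chromosome 5 the start of FLC lies at -299023 bases from that of HTR8, so within 500 kb of it. Whether this position has a part in the low FLC values was not tested. FLM, a relative of FLC, was at 14.1, 15.6 and 13.99 TPM in wild type against 9.66, 10.2 and 10.9 in G34R and 5.56, 4.56 and 4.57 in G34W, a fall of 0.93 (SE 0.09, adjusted p = 2.13e-07). TEM2, which represses FT, fell by 0.89 (SE 0.03, adjusted p = 2.24e-12), and SVP, a partner of FLC, by 0.37. Both FLC and FLM were lowest in G34W, without overlap between groups.

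SOC1, which promotes flowering, was at 14.8, 14.9 and 16.6 TPM in wild type against 23.1, 22.9 and 28.2 in G34R and 25.3, 24.9 and 22.5 in G34W, a rise of 0.63 (SE 0.08, adjusted p = 2.82e-06). FT, the mobile flowering signal, was not common, since its G34R libraries, at 0.375, 0.281 and 0.792 TPM, overlapped wild type at 0.183, 0.377 and 0.581, while G34W was at 3.83, 4.07 and 2.44.

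The contrast between the lines was not itself used to choose the genes. Since both lines had to lie on the same side of wild type, the choice still limits how they can differ, and the shares below are a description. G34W and G34R differed past an adjusted p of 0.05 in 1602 of the 5637 common genes that were higher (28.4%) and in 800 of the 1945 that were lower (41.1%), beside 33.3% of all genes tested. A difference of at least 1 log2 unit was seen in 33 (0.585%) and 35 (1.80%) of them, beside 1.35% of all genes tested. Among the common higher genes 836 of the differing ones were higher in G34W and 766 lower, and among the common lower genes 385 and 415. Medians were close, 0.50 in G34R and 0.54 in G34W for the genes that rose and -0.48 and -0.45 for those that fell.

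LBD41, a LOB-domain factor known to be induced by low oxygen, was at 5.33, 6.39 and 5.62 TPM in wild type against 7.36, 8.88 and 8.04 in G34R and 41.5, 37.0 and 40.4 in G34W, so that G34W exceeded G34R by 2.16 (SE 0.10, adjusted p = 1.17e-10). XYL4, a beta-xylosidase of the cell wall, was at 31.5 to 33.9, 37.5 to 42.4 and 114 to 123 TPM, with a difference of 1.55 (SE 0.06, adjusted p = 1.21e-11). These 2 rose in both lines, but mainly in G34W.

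On the other side, LEA7, a late embryogenesis abundant protein, was at 15.1, 15.9 and 16.4 TPM in wild type against 10.5, 11.2 and 10.6 in G34R and 2.57, 3.26 and 1.097 in G34W, a difference of -1.89 (SE 0.18, adjusted p = 8.01e-07). The cold-regulated gene COR15A differed by -1.67 (SE 0.14, adjusted p = 1.26e-07), and the jasmonate synthesis genes AOC2 and AOS by -1.66 (SE 0.07, adjusted p = 8.43e-11) and -1.09 (SE 0.05, adjusted p = 4.82e-11). All 4 fell in both lines, and further in G34W. In G34R the fall of COR15A was narrow, at 6.29 to 9.24 TPM against 9.28 to 10.96 in wild type (adjusted p = 0.0279 in limma's test). On the jasmonate list as a whole 7 of 14 measured genes rose and 5 fell, beside 30.4% and 10.5% of all genes tested. Of 17 measured abscisic acid, drought and cold genes 16 differed between the lines, with medians of 0.31 in G34R and -0.39 in G34W. In common 2 rose and 2 fell, beside the same shares of all genes tested.

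**Figure D4:**
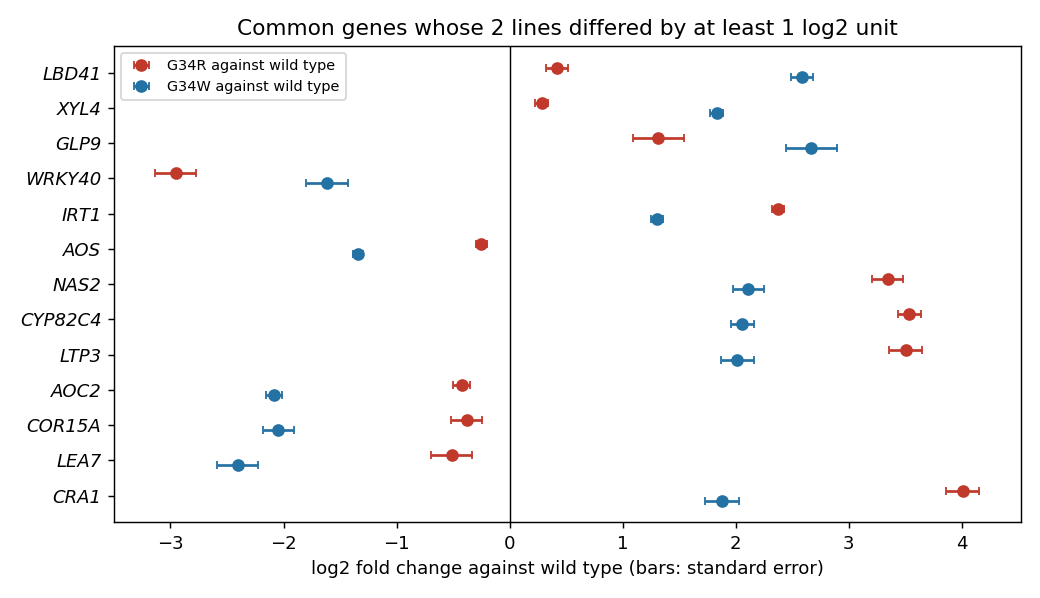
Log2 fold change against wild type in G34R (red) and G34W (blue), with standard errors, for the 13 named common genes whose lines differed by at least 1 log2 unit. The lines lie on the same side of 0 in each gene, with CRA1 furthest apart in favour of G34R and LBD41 in favour of G34W.

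The common genes were also described by their structure. A single exon was found in 9.89% of the common higher genes and 20.6% of the common lower genes, beside 13.3% of all. Among nuclear genes tested, the median span, introns included, was 2405 bases over all, 2214 for the common higher genes and 2394 for the common lower genes. It was 1688 bases for those that rose by at least 1 log2 unit and 1722 for those that fell as much, and 21.4% and 30.7% of them had a single exon. Of genes with spans of 29 to 1725 bases 35.0% were common and higher, and of genes of 3347 to 27265 bases 20.4%. The corresponding shares of common lower genes were 11.4% and 10.4% as deposited and 17.4% and 25.01% after median-ratio scaling. Span enters the deposited TPM, and its part in these shares was not tested.

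**Figure D5:**
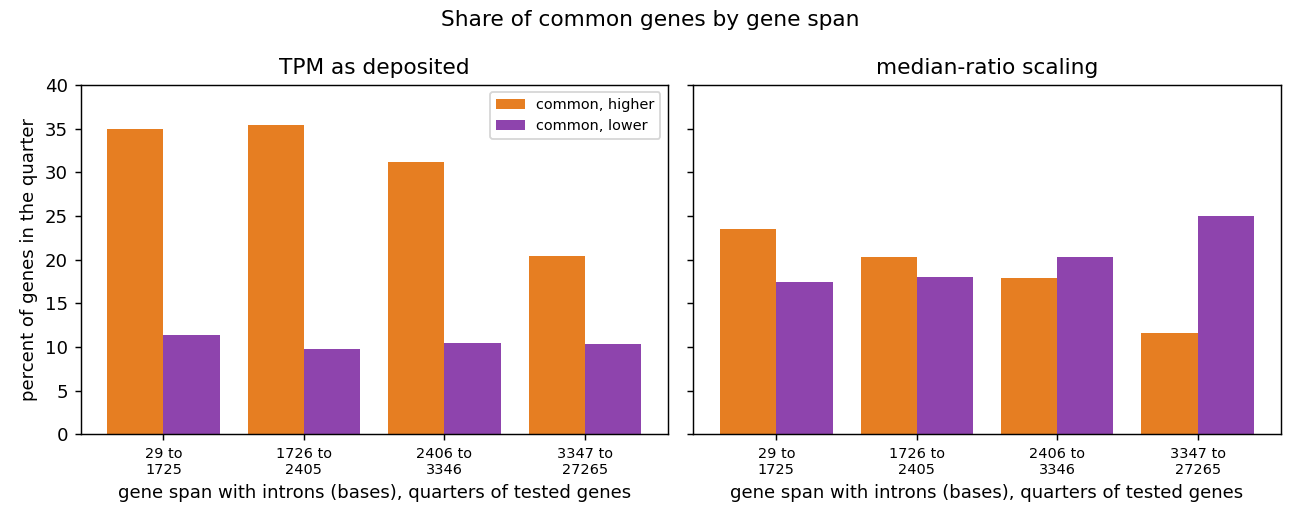
Percent of genes that were common and higher (orange) or common and lower (purple) in 4 groups of nuclear genes by span in bases, as deposited on the left and after median-ratio scaling on the right. The share of higher genes falls from 35.0% to 20.4% on the left and from 23.5% to 11.6% on the right, and the share of lower genes rises with span on the right alone.

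The common lower genes were more abundant, with a median of 28.9 TPM against 13.8 over all, and made up 19.8% of genes above 32.6 TPM but 7.06% of those up to 5.55 TPM. The share of common higher genes also grew with abundance, being 35.88% and 24.15% of the same groups, and their median was 16.9 TPM. Common genes had neighbours of their own kind more often. A neighbouring gene that was higher under all 3 scalings stood beside 27.6% of the genes that were higher under all 3, and beside 22.5% of all genes. For genes that were lower under all 3, the shares with a lower neighbour were 19.1% and 13.96%. Within 500 kb of HTR8, 39 of 213 tested genes were higher under all 3 scalings (18.3%) and 15 lower (7.04%), beside 16.2% and 10.3% of all genes tested.

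Membership at the edge of the separation rested on small gaps. Just inside lay SHM1, a photorespiratory enzyme, at 1389 to 1414 TPM in wild type and at most 1389 in the lines, and IQD19, a calmodulin-binding protein, at 12.2 to 16.1 TPM in wild type and at most 12.2 in the lines. Just outside lay UCP2, a mitochondrial carrier, with its lowest line library and its highest wild-type library both at 6.35 TPM, and VRN1, which acts in vernalization, with both at 13.8.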

How the data were processed

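Whole-seedling mRNA was measured in 9 libraries, 3 each of wild type, G34R and G34W, grouped by their titles. The deposited table gives TPM per gene made by the authors, and the tools and build listed in the submitters' processing notes are TAIR10, DESeq2 1.26.0, HISAT2 2.1.10 and fastp 0.20.1. How reads were counted, and with which strand setting, is not given in the sources used here. Overlapping, antisense and near-identical genes may exchange reads. Multiplying TPM by the gene span in RefSeq's TAIR10.1 annotation gave whole reads (tolerance 1e-06) for 99.98% of values, 12889624 to 14730745 per library. Intron length thus lowers TPM. In a span of 1 kb, 3 reads correspond to 0.422 to 0.495 TPM, counting error only. Replicates differed by more than sampling noise, most so in G34R. Chi-square per degree of freedom between replicate pairs was 2.55 to 5.47 in G34R, 1.78 to 2.02 in wild type and 1.75 to 1.96 in G34W. The test below shares a single spread per gene over the groups, so standard errors may be too small for G34R.

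The test was limma 3.58.1 (R 4.3.3) on log2(TPM + 1) for genes whose mean reached 1 TPM, with 1 model over 3 groups, a variance trend, two-sided tests and Benjamini-Hochberg adjustment at 0.05. Folds are on this scale and understate changes of low genes. The contrast was the mean of both lines minus wild type. The code was tested on simulated data. Each comparison with wild type shares the same 3 wild-type libraries. The members, the 35 lists (407 genes) and the product families were chosen with earlier results of these data known. Named genes were HTR4, HTR5, HTR8, FLC, FT and SOC1, the 12 largest common rises and falls, the 4 largest line differences each way (with a symbol and at least 5 TPM), up to 3 common members per list by adjusted p, and 2 genes just inside and outside the separation. Other genes given values in the text were chosen after their values were seen. Sequences came from TAIR10.1 by locus.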

Additional observations from a re-analysis of the deposited data

Results flagged for a closer look

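Named genes were singled out where G34W and G34R differed from each other past an adjusted p of 0.05 in limma's test of that difference and by at least 1 log2 unit. Of these 14 genes, 5 were higher in G34W, LBD41 by 2.16, FT by 1.58, XYL4 by 1.55, GLP9 by 1.35 and WRKY40 by 1.34. The 9 lower in G34W were CRA1 at -2.13, LEA7 at -1.89, COR15A at -1.67, AOC2 at -1.66, LTP3 at -1.49, CYP82C4 at -1.48, NAS2 at -1.23, AOS at -1.09 and IRT1 at -1.07. FT alone among them was not common to the lines. GLP9, a germin-like protein, was at 1.08, 2.23 and 0.294 TPM in wild type against 3.81, 4.41 and 4.16 in G34R and 12.2, 12.9 and 11.2 in G34W. LTP3, a lipid transfer protein, was at 0.530 to 1.15, 19.1 to 23.4 and 6.20 to 7.30 TPM. Another 64 named genes differed between the lines past the threshold by less than 1 log2 unit.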

How the results depend on the processing

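Scaling and the width of the gap moved the counts most. With median-ratio scaling 3389 common genes were higher and 3734 lower, from 3465 and 3868 separated genes, and with quantile normalization 3347 and 3557, from 3421 and 3684. Of the 7582 common genes 5334 and 5250 were still common in the same direction. A gap of at least 0.25 log2 units between the lines and wild type left 2429 higher and 795 lower, both separated and common, with 53 list members lower and 1072 common genes that differed between the lines. HTR5 turned to -0.0323 with median-ratio scaling (adjusted p = 0.402) and FBA2 to 0.056 with quantile normalization (adjusted p = 0.0257). Leaving out each library in turn gave 5733 to 6244 common genes higher and 1964 to 2102 lower, 5936 to 6470 and 2067 to 2292 separated, 108 to 118 and 105 to 113 list members higher and lower, and 1999 to 2607 that differed between the lines. Whichever library was left out, 6984 common genes (92.1%) were still common. Leaving out a library makes separation easier to meet. Replicate numbers did not pair the libraries, as deviations of same-numbered libraries correlated between -0.023 and 0.041. With replicate number as a block 5618 common genes were higher and 1941 lower, and 7553 were shared with the fit without it. With 1 coefficient for the 6 line libraries 7262 of the common genes were still common. Of 117 named genes 108 kept their direction and their side of the adjusted p of 0.05 under every alternative, separation aside, and HTR5, FBA2, VRN1, SWN, JMJ30, RCA, SOG1, FT and IQD19 did not. Of the 113 named genes that were common, 108 were still common with median-ratio scaling, 107 with quantile normalization and 81 with the gap of at least 0.25.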

Other observations

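Families named by their product in the annotation are described beyond the lists. They were picked after their values were seen and so are given without a test. Counts are of genes common under all 3 scalings, beside 16.2% higher and 10.3% lower over all genes tested. Of 42 tested peroxidase superfamily genes 29 were higher and 5 lower, with a median log2 difference of 0.98. AT2G38390, of this family, was at 9.10, 10.0 and 8.57 TPM in wild type against 96.3, 92.5 and 92.7 in G34R and 67.1, 73.0 and 72.4 in G34W. Lipid-transfer and 2S albumin genes had 21 of 42 higher and 5 lower, and glutathione S-transferases 20 of 41 and 4. WRKY factors had 17 of 36 higher and 4 lower, and CASP-like proteins 13 of 33 and 1. GSTU25, a glutathione S-transferase that detoxifies reactive compounds and has close copies beside it, rose from 13.5 to 16.5 TPM to 82.3 to 89.2 in G34R and 42.0 to 45.9 in G34W. WRKY60 rose by 1.72, whereas its relative WRKY40 fell by 2.28.

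Histone superfamily genes had 21 of 27 higher and 2 lower with a median of 0.69, and the histone H4 gene AT3G53730 was at 67.6, 71.1 and 69.2 TPM in wild type against 287, 265 and 256 in G34R and 301, 294 and 312 in G34W, though its close copies may share reads with it. Proteasome, ATP synthase and ribosomal protein genes had lower medians, of 0.32, 0.39 and 0.31. Of 42 proteasome genes 15 were higher and 0 lower, of 25 ATP synthase genes 12 and 0, and of 308 ribosomal protein genes 79 and 11, against 178 and 11 as deposited. In other families more genes were lower than higher, although most passed in neither direction. The SAUR-like auxin-responsive genes had 20 of 53 lower and 5 higher, and TIR-NBS-LRR resistance genes 19 of 56 and 2. SAUR24 was at 63.1, 58.5 and 60.9 TPM in wild type against 31.0, 28.5 and 29.4 in G34R and 34.03, 26.7 and 30.8 in G34W. SNC1, a TIR-NBS-LRR gene whose gain of function activates defence, fell by 0.45. In the NPH3 family 8 of 28 genes were lower and 2 higher. RPT2, a gene of phototropism in this family, fell from 1094 to 1120 TPM to 561 to 638 in G34R and 621 to 632 in G34W.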
